A study of Mus musculus with 7 samples.

Results

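Potassium channel subunits were described in mouse Pomc and Npy neurons sorted from the embryonic arcuate nucleus. The members are the 85 rows, of 18331 uniquely named genes, whose symbol starts with Kcn, with the long noncoding RNA gene Kcnq1ot1 set aside. Of these, 84 encode pore-forming channel subunits or proteins that bind and regulate them, in 21 subfamilies by letter, and the remaining one, Kcnd3os, is an antisense gene next to Kcnd3. The choice used the gene names alone and no measured value.

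The Pomc group holds 4 libraries of neurons expressing Pomc, whose product is cut into peptides that curb appetite. The Npy group holds neurons that make neuropeptide Y, which stimulates feeding, and 2 of its libraries were used. All came from dissociated arcuate nuclei of mouse embryos at E15.5, and 1 ng of total RNA went into each stranded library. The sources used here name no strain, genotype, sex, sorting reporter or number of embryos per library. Nothing in them says that the libraries of a group came from separate animals, so every p-value reflects variation among these libraries, possibly technical variation alone.

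Potassium channels let potassium leave the cell and so pull the membrane towards rest. Voltage-gated (Kv) channels repolarise the action potential, K2P (tandem pore domain) channels carry the background leak, inward rectifiers (Kir) hold the resting potential, and calcium-activated channels shape the pause after a spike. In the adult arcuate nucleus, G protein-gated Kir channels, ATP-sensitive channels and the M-current of Kv7 channels are known routes by which transmitters, nutrients and hormones silence neurons. Pores are built from several subunits, often of different genes of a subfamily, and accessory subunits set their gating and their place in the membrane.

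Values were taken as TPM, a measure per unit of gene length, because the columns used share a fixed total. The header gives no unit and the scaling by length was not tested, so every ranking of levels between genes, and every sum over genes, rests on this reading. The third Npy column was left out: for each of the 74 members detected in Npy replicate 1 or 2, it can be computed as a whole percent of the average of these replicates. The Pomc gene stood at 352 to 770 TPM in Pomc libraries, against 24.0 and 59.4 TPM in Npy libraries. The Npy gene stood at 2.11 to 152 TPM in Pomc libraries, against 728 and 513 TPM in Npy libraries, and Agrp, which adult arcuate Npy neurons express, was at most 6.82 TPM in any library. The 8 neuronal marker genes summed to 4789 to 5492 TPM in Pomc libraries, against 4159 and 3386 TPM in Npy libraries, and 4 of them (Tubb3, Elavl3, Elavl4 and Stmn2) stood higher in Pomc libraries at an unadjusted p under 0.05 by limma. The other neuronal markers did not run one way, with log2 fold changes of -0.26 for Snap25, -0.30 for Syt1, 0.20 for Map2 and 0.12 for Dcx. Their part in the members' values was not tested. Markers of other cells also moved with the groups. The 6 oligodendrocyte precursor markers summed to 0.444 to 2.64 TPM in Pomc libraries, with Cspg4 and Olig2 at 0 in all of them, against 228 and 207 TPM in Npy libraries, and all 6 had an adjusted p under 0.05 by limma. The 6 microglia markers summed to 43.0 TPM in Pomc replicate 4, to at most 2.27 TPM in the other Pomc libraries, and to 3.79 and 9.97 TPM in Npy libraries, with C1qa at 0 everywhere and P2ry12 at 0 in all but Pomc replicate 4. The 8 radial glia and astrocyte markers summed to 257 to 638 TPM in Pomc libraries, highest in replicate 4, against 602 and 404 TPM in Npy libraries, with Gfap at 0 in every library. Vim made up most of this sum in Pomc libraries, at 201 to 530 TPM, against 206 and 155 TPM in Npy libraries. Other genes of the list ran the opposite way. Fabp7 was at 1.61 to 61.6 TPM in Pomc libraries, against 323 and 176 TPM in Npy libraries, and Nes at 14.6 to 26.4 TPM, against 49.0 and 40.0 TPM. Endothelial and pericyte markers summed to 1.31 to 11.7 TPM in Pomc libraries, against 24.7 and 26.2 TPM in Npy libraries, where Cspg4 made up most of the sum. Fibroblast markers summed to at most 10.2 TPM in any library. In bulk samples, fewer cells of a type and less RNA per cell cannot be told apart.

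Of the 85 members, 47 had a value above 0 in all 6 libraries and 5 were listed at 0 in every library. A mean of at least 20 TPM over the 6 libraries was reached by 16 members and at least 10 TPM by 32. All members together summed to 1155, 1047, 1005 and 940 TPM in Pomc replicates 1 to 4, against 1119 and 871 TPM in Npy replicates 1 and 2. The groups overlapped in this sum, and the Npy libraries lay farther apart than either did from the Pomc mean of 1037 ± 90.1 TPM (SD, n = 4). The 10 most abundant members made up 49.9% of it.

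Pomc and Npy neurons were compared gene by gene in 62 members that reached 1 TPM in at least 2 of the 6 libraries. None passed the threshold, an adjusted p of 0.05 over all 13845 tested genes by limma, which 0.412% of all tested genes passed (0.289% with higher values in Pomc neurons and 0.123% with lower values). An unadjusted p under 0.05 by limma was found for 9 members, 14.5% of those tested, beside 7.36% of all tested genes. Of these, 6 members stood higher in Pomc neurons (Kcnk12, Kcnk13, Kcnk2, Kcnc1, Kcnh2 and Kcnj3), 9.68%, beside 4.08% of all tested genes. The other 3 members stood lower in Pomc neurons (Kcna6, Kcnk1 and Kcnd3os), 4.84%, beside 3.28% of all tested genes. The groups did not overlap in 12 tested members, 19.4%, beside 15.9% of all tested genes, with Pomc libraries above in 7, 11.3% beside 8.05%, and below in 5, 8.06% beside 7.86%. The log2 fold change was above 0 in 33 of the 62 members, 53.2%, beside 51.3% of all tested genes. The median log2 fold change (Pomc minus Npy, on log2(TPM + 1)) was 0.05 over the members and 0.02 over all tested genes, and the median absolute change was 0.60 and 0.34. Without Npy replicate 1 the members' median log2 fold change was 0.23, and without Npy replicate 2 it was -0.32. The median absolute changes of members and of all tested genes were not matched on level. A mean of at least 20 TPM was reached by 16 of the 62 members, beside 7768 of the tested genes detected in Pomc libraries. Genes of lower level varied more between Pomc libraries.

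**Figure D1:**
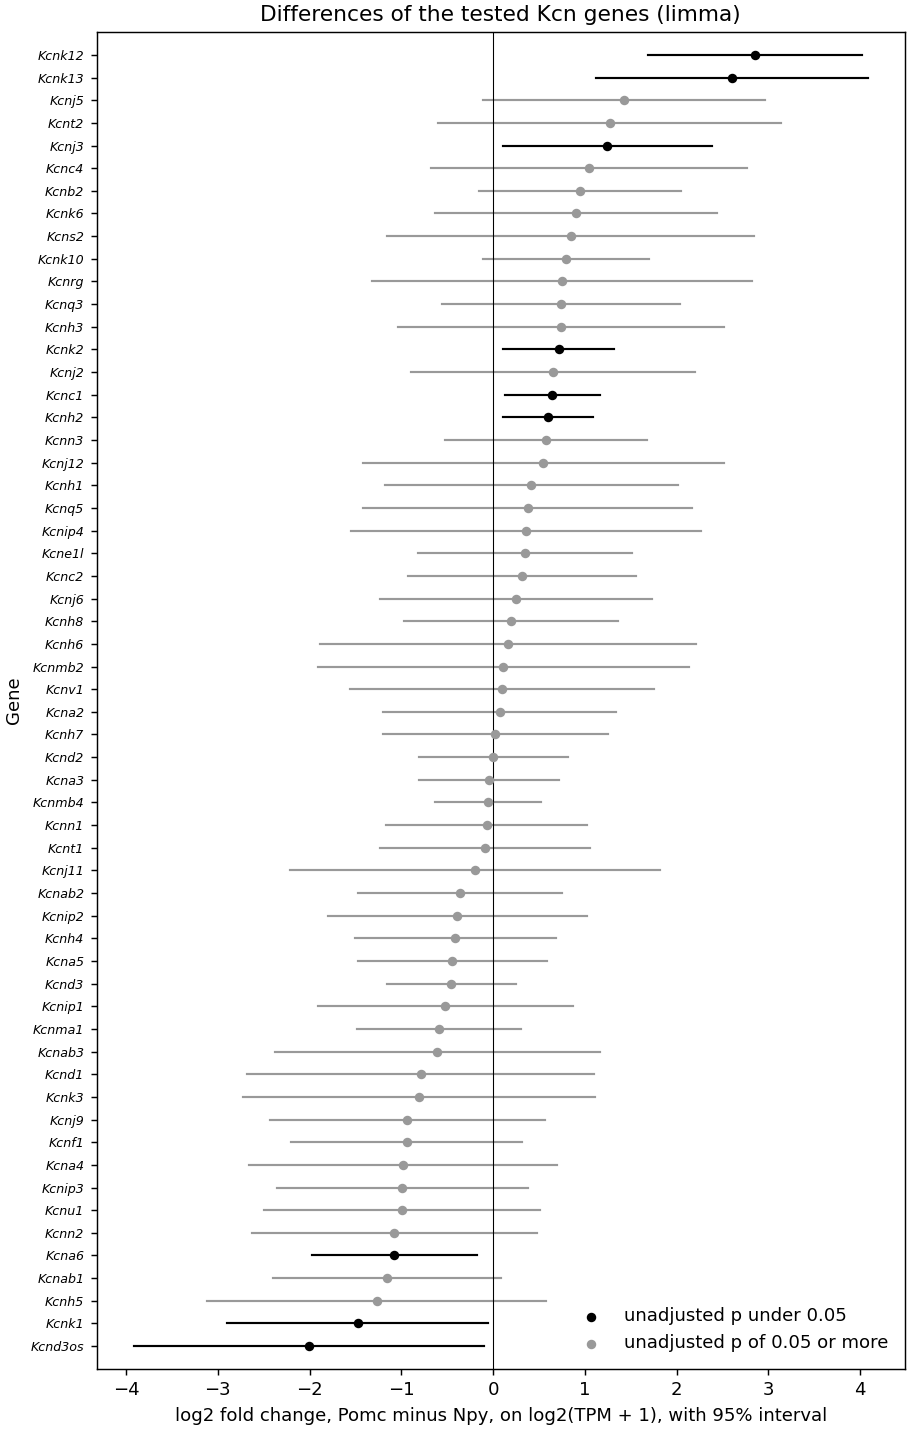
Log2 fold change of 58 of the 62 tested members, Pomc minus Npy on log2(TPM + 1), as points with 95% intervals from limma. Kcnk12, at 2.86, and Kcnk13, at 2.60, lie farthest to the right; Kcnd3os, at -2.01, lies farthest to the left, and black marks the 9 members with an unadjusted p under 0.05.

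The summed level of the K2P genes was higher in every Pomc library than in either Npy library. Most of it came from 4 genes, the TREK genes Kcnk2 and Kcnk10 and the THIK genes Kcnk12 and Kcnk13. The 11 members summed to 208, 132, 139 and 117 TPM in Pomc libraries, against 96.6 and 64.0 TPM in Npy libraries. Pomc replicate 1 stood highest. These 4 genes alone summed to 191, 128.5, 129.99 and 104.7 TPM in Pomc libraries, against 77.4 and 47.6 TPM in Npy libraries. The other 7 K2P genes summed to 16.8, 3.799, 9.46 and 12.3 TPM in Pomc libraries, against 19.2 and 16.4 TPM in Npy libraries, with overlap. The split into 4 and 7 genes was not planned and was made with the values known. It therefore cannot test whether the 4 genes differ from the rest. As a share of the summed TPM of all members, the 11 K2P genes took 18.03, 12.6, 13.9 and 12.4% in Pomc libraries, against 8.64 and 7.35% in Npy libraries. Of the 7 K2P genes tested, 5 had log2 fold changes above 0 and 2 below, with a median of 0.80.

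Kcnk12 (chromosome 17, 87745801 to 87797994, GRCm38, minus strand), which encodes the halothane-inhibited leak subunit THIK-2, had the smallest p of all members. It stood at 49.8, 31.2, 31.7 and 22.7 TPM in Pomc libraries, against 6.15 and 2.00 TPM in Npy libraries. The lowest Pomc library was well above the highest Npy library. Its log2 fold change was 2.86 ± 0.52 (SE; 95% interval 1.69 to 4.02), a 7.24-fold higher fitted level in Pomc neurons, and it missed the threshold (limma adjusted p = 0.0726). The adjusted p ranged from 0.0422 to 0.522 over 13 alternatives that leave out the computed Npy column. It was under the threshold with short RNA genes taken out before scaling (0.0437), with quantile normalization (0.0422) and without Npy replicate 1 (0.0434). It was highest without Npy replicate 2.

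Kcnk13 (chromosome 12, 99964499 to 100062682, plus strand) encodes THIK-1, a close relative that can form channels with THIK-2. It stood at 7.09, 2.84, 7.45 and 5.34 TPM in Pomc libraries, and was listed at 0.106 and 0 TPM in Npy libraries. All Pomc libraries were above both Npy libraries, and the gene met the filter through Pomc libraries alone. Its log2 fold change was 2.60 ± 0.66 (limma adjusted p = 0.26), and 5.24 with a pseudocount of 0.1 in place of 1. In adult brain Kcnk13 is a known channel of microglia. The 6 microglia markers summed to 0.263, 0, 2.27 and 43.0 TPM in Pomc replicates 1 to 4, against 3.79 and 9.97 TPM in Npy libraries, and their part in the Kcnk13 values was not tested.

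The TREK genes encode leak channels opened by membrane stretch, heat and fatty acids. Kcnk2, which encodes TREK-1, stood at 58.4, 49.1, 50.1 and 41.3 TPM in Pomc libraries, against 32.7 and 27.0 TPM in Npy libraries, with no overlap (log2 0.71 ± 0.27, limma adjusted p = 0.574). Kcnk10, which encodes TREK-2, stood at 76.0, 45.4, 40.8 and 35.4 TPM in Pomc libraries, against 38.5 and 18.6 TPM in Npy libraries. Here the lowest Pomc library fell below the higher Npy library (log2 0.80 ± 0.40, limma adjusted p = 0.745). Kcnk2 shares exon bases with A430027H14Rik on the opposite strand, and how strand was used in counting is not stated.

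Kcnk1, which encodes TWIK-1, a leak subunit kept largely inside the cell, ran the other way. It stood at 1.16, 1.96, 2.75 and 3.41 TPM in Pomc libraries, against 7.14 and 8.77 TPM in Npy libraries, with no overlap (log2 -1.48 ± 0.63, limma adjusted p = 0.651). Kcnk3, a TASK channel closed by acid, overlapped between groups, at 0.529 to 11.5 TPM in Pomc libraries and 9.42 and 7.66 TPM in Npy libraries. Kcnk6 stood at 1.31 to 2.43 TPM in Pomc libraries and at 1.41 and 0 TPM in Npy libraries. The other K2P members were at or near 0: Kcnk4 and Kcnk9 had a value in a single library each, and Kcnk5 and Kcnk15 in none.

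**Figure D2:**
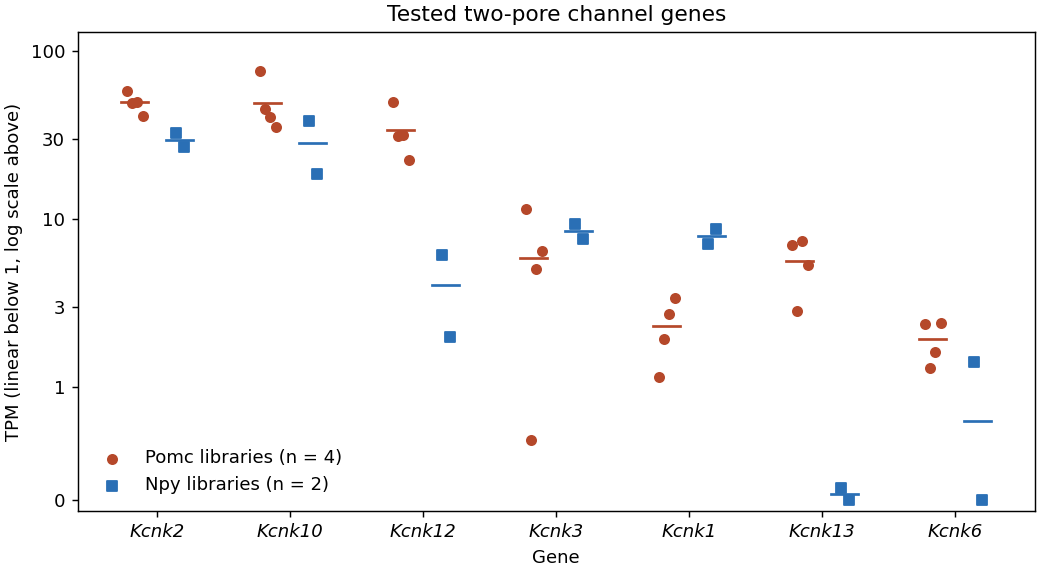
TPM of the 7 tested K2P genes in each Pomc library (circles) and each Npy library (squares), with the group mean as a line; the axis is linear below 1 TPM and logarithmic above. Kcnk2, Kcnk12 and Kcnk13 lie higher in all Pomc libraries than in both Npy libraries, and Kcnk1 lies lower.

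The promoters of the THIK genes and of Kcnk1 are shown because these K2P genes differed most between the groups, in opposite directions. Each is the 250 bases before the start site given by RefSeq (GRCm38.p6), with CG dinucleotides in capitals. Kcnk12 lies at chr17:87797995-87798244 on the minus strand, Kcnk13 at chr12:99964249-99964498 on the plus strand and Kcnk1 at chr8:125994852-125995101 on the plus strand.
Kcnk12: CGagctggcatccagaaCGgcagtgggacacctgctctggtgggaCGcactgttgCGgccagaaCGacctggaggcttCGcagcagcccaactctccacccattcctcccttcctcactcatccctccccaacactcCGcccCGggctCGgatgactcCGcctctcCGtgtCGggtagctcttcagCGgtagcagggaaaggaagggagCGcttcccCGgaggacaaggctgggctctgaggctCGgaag
Kcnk13: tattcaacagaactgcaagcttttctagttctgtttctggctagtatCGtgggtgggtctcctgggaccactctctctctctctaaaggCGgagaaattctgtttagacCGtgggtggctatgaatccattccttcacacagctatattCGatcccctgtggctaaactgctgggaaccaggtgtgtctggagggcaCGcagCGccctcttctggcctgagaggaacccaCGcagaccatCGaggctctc
Kcnk1: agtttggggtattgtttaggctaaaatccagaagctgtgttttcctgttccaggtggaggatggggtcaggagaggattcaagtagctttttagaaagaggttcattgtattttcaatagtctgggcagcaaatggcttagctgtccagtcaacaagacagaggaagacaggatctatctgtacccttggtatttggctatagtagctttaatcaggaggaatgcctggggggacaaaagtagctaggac
The Kcnk12 window holds 16 CG dinucleotides, the Kcnk13 window 8 and the Kcnk1 window 0, beside a median of 6 over 27025 mouse promoters of the same length and 9.5 over the 62 members matched in that table. The windows of Kcnk2 and Kcnk10, which also had log2 fold changes above 0, hold 5 and 4. Kcnk1, with a log2 fold change below 0, had the lowest count among these K2P genes. They were picked after their values were seen, and a relation of CG count to direction was not tested. For Kcnk1 the RefSeq start lies 68 bases from the GENCODE start, and for Kcnk10 it lies 97 bases from it. RefSeq lists 4 starts for Kcnk2 and 2 for Kcnk10. Only the window of the most upstream start of each gene was read. Neither CAGCTG, an E-box, nor CAAGGTCA, a nuclear receptor half-site with its extension, nor TATAAA was found on either strand in the 3 windows shown or in those of Kcnk2 and Kcnk10. Of all 27025 promoters, 12.7% hold CAGCTG, 1.3% hold CAAGGTCA and 13.0% hold TATAAA, and no one of these motifs contains another. Among the members' windows CAGCTG occurred in 14 of 62, CAAGGTCA in that of Kcnf1 and TATAAA in that of Kcnj9. The members' windows had a median GC content of 60.8%, beside 52% for all promoters, and the motif counts were not adjusted for it or tested.

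Inward rectifiers include the GIRK subunits, which inhibitory receptors open through G protein beta-gamma subunits. The 13 Kir genes summed to 73.9, 52.5, 49.7 and 64.0 TPM in Pomc libraries, against 37.6 and 50.3 TPM in Npy libraries, with overlap. A sum over the GIRK genes alone was not planned. The GIRK genes Kcnj3, Kcnj5, Kcnj6 and Kcnj9 together summed to 61.4, 36.9, 40.8 and 53.9 TPM in Pomc libraries, against 28.2 and 32.9 TPM in Npy libraries, with no overlap. Kcnj3, which encodes GIRK1, stood at 34.3, 16.3, 24.0 and 12.5 TPM in Pomc libraries, against 7.50 and 8.57 TPM in Npy libraries. Its groups did not overlap (log2 1.24 ± 0.51, limma adjusted p = 0.616). Kcnj3 shares exon bases with Gm26794 on the opposite strand.

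Kcnj5, the GIRK4 subunit, stood at 19.6, 5.04, 6.46 and 15.4 TPM in Pomc libraries, against 3.64 and 2.65 TPM in Npy libraries. Its groups did not overlap either, although 2 of the Pomc libraries came close to the Npy level (log2 1.43 ± 0.68, limma adjusted p = 0.712). Kcnj6 (GIRK2) was at 4.16 to 4.78 TPM in 3 Pomc libraries and 14.0 TPM in Pomc replicate 4, against 5.68 and 4.36 TPM in Npy libraries, so the groups overlapped. Kcnj9 (GIRK3) overlapped as well, at 2.66 to 12.007 TPM in Pomc libraries and 11.4 and 17.3 TPM in Npy libraries, with a log2 fold change of -0.94 ± 0.66 (limma adjusted p = 0.823).

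Channels closed by ATP couple nutrient state to firing in adult arcuate neurons. Their pore subunit Kcnj11 was low, at 2.68, 7.56, 3.76 and 0 TPM in Pomc libraries, against 4.15 and 2.13 TPM in Npy libraries. The interval of its log2 difference, -2.22 to 1.82, was wide. Its regulatory partner Abcc8, the sulfonylurea receptor, stood at 0.535 to 3.74 TPM in Pomc libraries, against 8.66 and 0 TPM in Npy libraries. The other pore subunit of these channels, Kcnj8, a known marker of brain pericytes, was listed at 0 in every library except Npy replicate 2, where it reached 7.80 TPM. The same library had the highest values of the pericyte genes Pdgfrb, at 4.75 TPM, and Rgs5, at 2.24 TPM; Abcc9, which encodes the regulatory subunit that joins Kcnj8, was also highest there, at 2.56 TPM. Other vascular markers were not: Cspg4 was at 21.3 TPM in Npy replicate 1 and 17.5 TPM in Npy replicate 2, and Pecam1 and Cdh5 were likewise higher in Npy replicate 1. The part of pericytes in the Kcnj8 value was not tested. The classical inward rectifiers Kcnj2 and Kcnj12 were under 6 TPM in every library. The glial channel subunit Kcnj10 was highest in Pomc replicate 4, at 3.79 TPM, and at most 0.862 TPM elsewhere, and its partner Kcnj16 was at 0.477 TPM or less in Pomc libraries, against 1.35 and 0.902 TPM in Npy libraries.

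Kv7 channels carry the M-current, a brake on repetitive firing that muscarinic receptors release. The 5 Kv7 genes summed to 105, 108, 97.4 and 99.5 TPM in Pomc libraries, against 114 and 93.0 TPM in Npy libraries, so the groups overlapped. Kcnq3 varied between the Pomc libraries, at 23.6, 20.2, 7.52 and 30.9 TPM, against 9.52 and 11.8 TPM in Npy libraries (limma adjusted p = 0.839). Kcnq5 stood at 0.966 to 3.30 TPM in Pomc libraries, against 3.76 and 0 TPM in Npy libraries, and Kcnq1, the cardiac and epithelial member, was at most 0.063 TPM.

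Among the voltage-gated channels, Kcnc1, a Kv3 subunit that allows fast repolarisation, stood at 74.6, 73.5, 67.5 and 67.8 TPM in Pomc libraries, against 52.3 and 38.4 TPM in Npy libraries. The Pomc libraries lay close together, at 70.9 ± 3.70 TPM (SD, n = 4), and above both Npy libraries (log2 0.65 ± 0.23, limma adjusted p = 0.546). The 4 Kv3 genes summed to 96.4, 105.6, 95.9 and 91.1 TPM in Pomc libraries, against 72.9 and 54.8 TPM in Npy libraries. Kcnc2 and Kcnc4 overlapped between the groups.

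The Kcnh genes (EAG, ERG and ELK channels) formed the subfamily with the largest summed level averaged over the 6 libraries. Kcnh2, the ERG channel known from the heart's repolarisation and also found in neurons, stood at 76.5, 69.7, 74.9 and 66.2 TPM in Pomc libraries, against 51.7 and 42.8 TPM in Npy libraries. Its groups did not overlap (log2 0.60 ± 0.22, limma adjusted p = 0.564). Kcnh4, an ELK subunit, varied more within Pomc neurons than between the groups, at 23.8, 59.8, 38.7 and 15.511 TPM in Pomc libraries, against 39.0 and 42.9 TPM in Npy libraries. Kcnh8 and Kcnh7 stood at 13.5 to 28.9 and 8.09 to 20.1 TPM in Pomc libraries, against 26.5 and 10.2 TPM for Kcnh8 and 17.5 and 8.37 TPM for Kcnh7 in Npy libraries. Kcnh6 ranged from 1.36 to 20.957 TPM in Pomc libraries, which spans both Npy values of 3.26 and 11.9 TPM.

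Kv1 channels set the threshold of firing and sit on the axon, bound to beta subunits of the Kcnab genes. Kcna6 stood at 17.03, 15.7, 10.6 and 18.4 TPM in Pomc libraries, against 28.8 and 37.9 TPM in Npy libraries, with no overlap (log2 -1.08 ± 0.40, limma adjusted p = 0.564). Kcna6 shares exon bases with Gm26673 on the opposite strand. Kcna3 was the most abundant Kv1 gene, at 38.3, 34.3, 35.2 and 27.9 TPM in Pomc libraries, between the Npy values of 48.1 and 25.2 TPM. Kcna5 stood at 9.65 to 24.9 TPM in Pomc libraries, against 20.8 and 23.3 TPM in Npy libraries. Kcna1, a main Kv1 subunit of adult axons, was at most 0.307 TPM in Pomc libraries and at 0.826 and 0 TPM in Npy libraries. The beta subunit gene Kcnab1 stood at 8.74, 14.7, 9.86 and 6.72 TPM in Pomc libraries, against 36.5 and 13.9 TPM in Npy libraries (log2 -1.15 ± 0.55, limma adjusted p = 0.715). Npy replicate 1 stood far above the other libraries, and without it the log2 fold change was -0.49. Kcnab1 shares exon bases with A330015K06Rik on the opposite strand.

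Kv2 and Kv4 channels carry much of the somatic delayed rectifier and the dendritic A-type current. Kcnb2 stood at 20.5, 19.99, 29.9 and 30.5 TPM in Pomc libraries, against 21.2 and 7.05 TPM in Npy libraries. Kcnd2 stood at 38.1, 27.5, 22.4 and 45.5 TPM in Pomc libraries, against 35.7 and 28.8 TPM in Npy libraries, and its log2 difference of 0.00 had an interval of -0.81 to 0.81. Kcnd3 stood at 56.6, 32.8, 34.5 and 34.7 TPM in Pomc libraries, against 62.1 and 45.6 TPM in Npy libraries, so that Pomc replicate 1 alone kept the groups from separating. The antisense gene Kcnd3os (chromosome 3, 105441595 to 105452955, minus strand) shares exon bases with Kcnd3. It was listed at 0, 0, 0.421 and 4.57 TPM in Pomc libraries, against 5.36 and 6.16 TPM in Npy libraries (log2 -2.01 ± 0.85, limma adjusted p = 0.65). Without a stated use of strand, reads from the bases that this pair shares cannot be told apart.

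Of the KChIP genes, whose calcium-binding proteins escort Kv4 channels, Kcnip1 was the most abundant. It stood at 37.3, 22.6, 29.0 and 6.95 TPM in Pomc libraries, lowest in replicate 4, against 40.5 and 22.0 TPM in Npy libraries. Kcnip3, also known as the repressor DREAM, stood at 5.51, 6.11, 7.05 and 20.1 TPM in Pomc libraries, with replicate 4 above both Npy libraries at 19.1 and 16.4 TPM. Subunits that form no pore alone and modify Kv2 channels were low. Kcnf1 stood at 6.01, 11.96, 4.50 and 8.30 TPM in Pomc libraries, against 16.3 and 13.5 TPM in Npy libraries, with no overlap (limma adjusted p = 0.792). Kcnv1 was at most 4.06 TPM in any library, and Kcns2 at most 5.36 TPM. The 4 Kv6 genes were at most 2.56 TPM each, a value of Kcng1 in Npy replicate 1, and Kcng3, with the highest mean of them, was at most 1.49 TPM.

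Among calcium-activated channels, the accessory subunit was more abundant than its pore. Kcnmb4, the neuronal beta subunit of BK channels, stood at 89.6, 62.3, 66.7 and 55.8 TPM in Pomc libraries, against 79.9 and 61.7 TPM in Npy libraries (log2 -0.06, interval -0.63 to 0.52). Kcnma1, the BK pore, stood at 20.9, 18.7, 26.4 and 25.996 TPM in Pomc libraries, against 51.5 and 23.5 TPM in Npy libraries (limma adjusted p = 0.812). The Npy libraries thus differed by more than the Pomc range, and without Npy replicate 1 the log2 difference of Kcnma1 moved to -0.04. The SK genes, whose channels help shape the pause after a spike, overlapped between the groups. Kcnn3 stood at 11.7, 23.3, 22.8 and 15.7 TPM in Pomc libraries, against 15.9 and 8.40 TPM in Npy libraries, Kcnn1 at 8.38 to 17.1 TPM, against 11.3 and 14.2 TPM, and Kcnn2 at 2.17 to 12.3 TPM, against 10.7 and 12.9 TPM. Kcnn4, the blood and epithelial member, was listed at 0 throughout. The sodium-activated channel gene Kcnt1 stood at 8.60 to 24.2 TPM in Pomc libraries, against 17.1 and 13.1 TPM in Npy libraries, and Kcnu1, known from sperm, stood at 2.23 to 4.68 TPM, against 4.404 and 11.98 TPM.

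**Figure D3:**
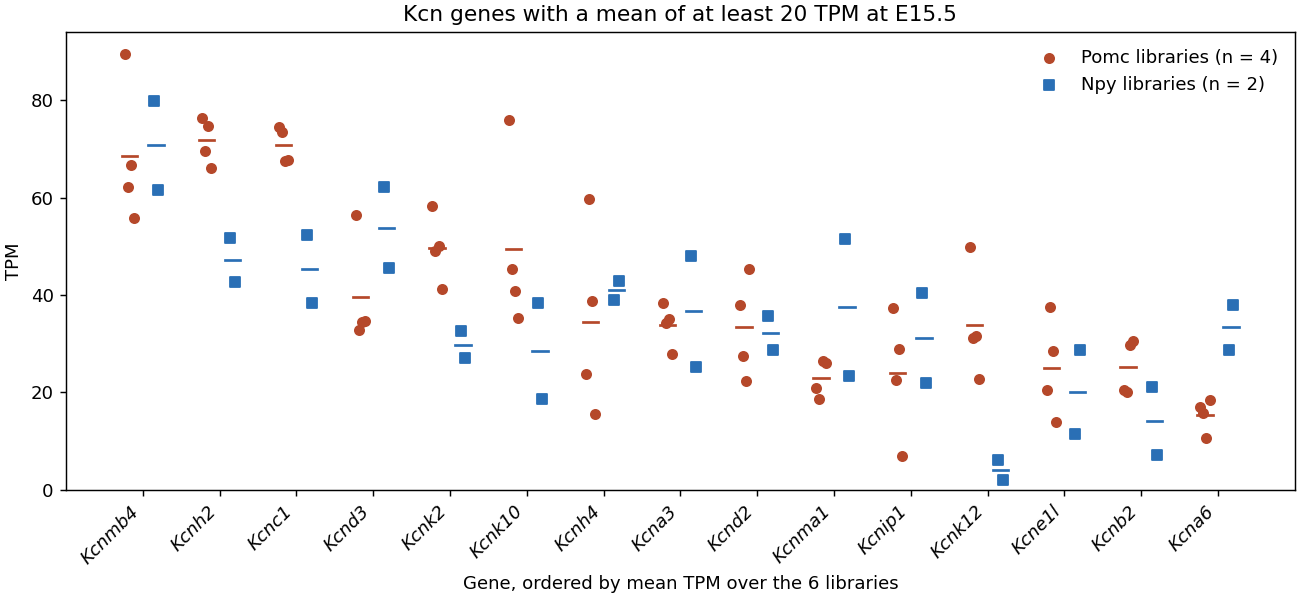
TPM of 15 of the 16 members with a mean of at least 20 TPM in each Pomc library (circles) and each Npy library (squares), with group means as lines. Kcnh2, Kcnc1, Kcnk2 and Kcnk12 lie higher in all Pomc libraries than in both Npy libraries, Kcna6 lies lower, and the others overlap.

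The regulatory subunit Kcne1l (also named Kcne5) was the KCNE gene that passed the filter, at 20.4, 37.5, 28.6 and 13.9 TPM in Pomc libraries, against 11.4 and 28.8 TPM in Npy libraries. Kcnrg, which hinders assembly of Kv channels, ranged from 0.902 to 9.06 TPM in Pomc libraries, against 4.00 and 0 TPM in Npy libraries. The 23 members that were not tested stayed at or under 7.80 TPM in every library, and 5 of them (Kcne3, Kcnk5, Kcnk15, Kcnn4 and Kcns3) were listed at 0 in all 6. Kcne2 reached 5.16 TPM in Pomc replicate 2 and was at most 0.680 TPM elsewhere.

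**Figure D4:**
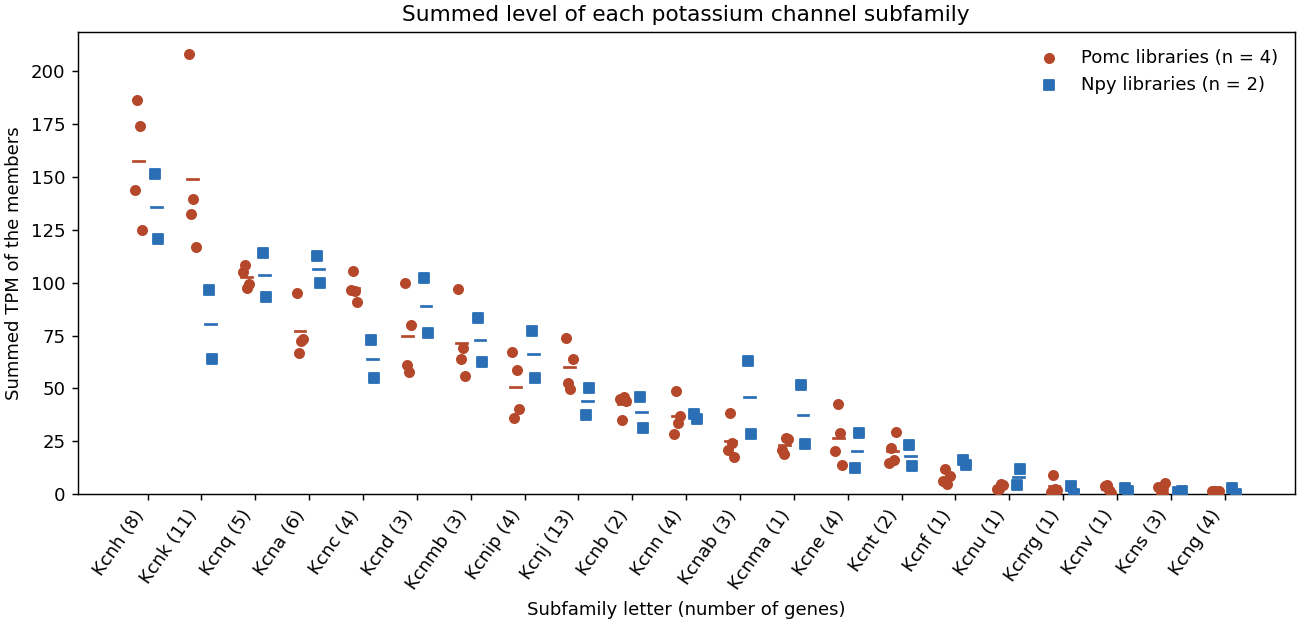
Summed TPM of each subfamily (number of genes in brackets) in each Pomc library (circles) and each Npy library (squares), with group means as lines. Among subfamilies of several genes, the K2P (Kcnk) and Kv3 (Kcnc) sums lie higher in all Pomc libraries than in both Npy libraries, and the Kv1 (Kcna) sum lies lower; no test was made on sums.

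The proteins that channels bind were read from a list of 25 genes whose symbols do not start with Kcn. Of 22 tested, none passed the threshold by limma, 2 had an unadjusted p under 0.05 with higher values in Pomc neurons and 1 with lower values, beside 4.08% and 3.28% of all tested genes, and the median log2 fold change was -0.12. Calm3, which encodes calmodulin, the calcium sensor that SK and Kv7 channels carry, was on the higher side (log2 0.57 ± 0.22, limma adjusted p = 0.575). Calm2, which encodes the same protein and was more abundant, stood at 1187 to 2103 TPM in Pomc libraries, against 1760 and 1631 TPM in Npy libraries, a log2 fold change of 0.04. Dlg2, a scaffold that clusters Kv1 and Kir channels, stood at 16.02, 11.4, 19.8 and 16.7 TPM in Pomc libraries, against 58.2 and 38.4 TPM in Npy libraries (log2 -1.53 ± 0.38, limma adjusted p = 0.251). The Kv4 partner Dpp6 stood at 156, 104, 115 and 102 TPM in Pomc libraries, against 181 and 153 TPM in Npy libraries, and the BK partner Lrrc55 at 27.9 to 48.2 TPM, against 64.2 and 46.9 TPM.

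The 9 members with an unadjusted p under 0.05 did not rest equally on all libraries. Kcnk12 stayed under that p in all 6 fits that leave out a single library. Kcnk13 did too, but it met the filter through Pomc libraries alone, so a difference was built into its selection. Without Npy replicate 2, the count on the higher side of Pomc neurons was 2 in place of 6. On the lower side the count was 1 without Pomc replicate 1, 0 without Pomc replicate 3 and 1 without Npy replicate 1, in place of 3. The Npy pair itself was uneven: Npy replicate 1 was above Npy replicate 2 in 47 of the 62 tested members, 75.8%, and in 58.7% of all tested genes. The oligodendrocyte precursor markers and the radial glia genes Fabp7 and Nes stood higher in both Npy libraries alongside Kcna6, Kcnk1, Kcnf1 and Kcnd3os, and their part in these values was not tested. Short RNA genes took 9.35 to 11.99% of the Pomc libraries, against 13.0 and 15.6% of the Npy libraries. With these genes taken out before scaling, K2P genes summed to 132 to 230 TPM in Pomc libraries, against 111 and 75.9 TPM in Npy libraries, and the same 9 members were under the unadjusted p.

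Spread between Pomc libraries depended on level. The median coefficient of variation over the 4 Pomc libraries was 22.5% for the 16 tested members with a mean of at least 20 TPM, beside 22.1% for all tested genes of that level. It was 42.2% for the 23 members from 5 to 20 TPM, beside 46.7%, and 75.2% for the 23 members under 5 TPM, beside 103%. Kcnc1 had the lowest spread, at 5.22%.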

How the data were processed

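RNA was measured in sorted Pomc neurons (4 samples) and Npy neurons (3 labelled samples) at E15.5. The authors deposited 1 table of 18335 rows without a unit in its header. The deposited values were taken as TPM, with the length scaling untested, because the columns share 1 fixed total, except for that of Npy replicate 3. That column is a computed one: dividing it by the average of the other Npy columns gives whole percents, 95 to 105, in each of 15223 genes (tolerance 0.0001 percentage points), so it was left out. Per the submitters' processing notes, HISAT2, edgeR 3.8 and the mm10 build were used, with no role given; the sources used here do not give the counting tool, the annotation or the use of strand. Read depth was not estimated from TPM, so no counting interval is given.

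A further 4 rows with a repeated symbol were left out. limma 3.58.1 (R 4.3.3) was fitted to log2(TPM + 1) with a trended prior variance, in 13845 genes with at least 1 TPM in at least 2 of 6 libraries, and adjusted by Benjamini-Hochberg over all of them, two-sided. Fold changes on this scale understate those of low genes. A 0 is a listed value and no proof of absence. The fit was tested on simulated data. The labels give replicate numbers and do not say whether same-numbered libraries are paired. A check of shared deviations is given with the alternatives (pseudocount, filters, prior, scaling, quantile normalization, all columns, replicate block, each library left out). Positions come from GENCODE M21 (GRCm38), where all 85 members matched and 28 share exon bases with another gene, so their values are uncertain without strand. Among the 9 members with an unadjusted p under 0.05 these were 5.

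Genes were named if they had an adjusted or an unadjusted p under 0.05, were among the 10 most abundant members or the most abundant of their subfamily, or are tied to arcuate neurons by general knowledge. The other genes named, and the promoters shown, were chosen after their values were seen. Some genes that meet this rule are not reported here and are not drawn, though counts and sums include them. Protein sequences were not used here. The members and lists were chosen with earlier results of these data known.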

Additional observations from a re-analysis of the deposited data

Results flagged for a closer look

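The gap of the highest or lowest Pomc library to its neighbour was set against the range of the 4 Pomc libraries in 55 values, those of named genes and summed levels. A library stood apart in 3 of them, and chance alone gives about 1 in 20. For Kcnd3, Pomc replicate 1 was at 56.6 TPM and the remaining Pomc libraries at 32.8 to 34.7 TPM. For Kcnj6, Pomc replicate 4 was at 14.0 TPM and the rest at 4.16 to 4.78 TPM. For the antisense gene Kcnd3os, Pomc replicate 4 was at 4.57 TPM and the rest at 0 to 0.421 TPM. Pomc replicate 4 is also the library with the highest microglia and radial glia marker sums of the Pomc group, and their part in these values was not tested.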

How the results depend on the processing

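No member was called in either direction with a pseudocount of 0.1, without a filter, with 5 TPM in at least 3 libraries, with one prior variance or with the replicate block, and none was called lower in Pomc neurons under any alternative run. On the higher side, 1 member (Kcnk12) was called with short RNA genes taken out and 1 with quantile normalization, and 2 (with Kcnk13) when the computed Npy column counted as a replicate; leaving out a library gave 0 to 1. Members at an unadjusted p under 0.05 on the higher side numbered 3 with the replicate block and 2 to 9 without a library; on the lower side 1 with a pseudocount of 0.1, 1 with 5 TPM in at least 3 libraries, 5 with one prior variance, 6 with all columns, 1 with the block and 0 to 4 without a library. All genes called were 57 as reported, 37 with a pseudocount of 0.1, 33 without a filter, 205 with all columns, 12 with the block and 22 to 69 without a library. Of the partner genes, 1 was called with all columns and 0 otherwise, an alternative added after seeing the data. The summed level of all members, 1037 TPM in Pomc libraries, is 1164 TPM with short RNA genes taken out, by construction. With the block the reversed log2 changes were 0.0542 for Kcna3, 0.48 for Kcnj11, -0.13 for Kcnj6 and 0.0890 for Kcnmb4. Kcnd2 was -0.0495 with short RNA genes taken out, -0.0448 with quantile normalization and -0.0082 with all columns. Leaving out a library gave ranges across 0 for Kcna3 (-0.50 to 0.40), Kcnd2 (-0.16 to 0.17), Kcne1l (-0.28 to 0.98), Kcnj11 (-0.63 to 0.40), Kcnj6 (-0.11 to 0.41), Kcnmb4 (-0.24 to 0.13), Kcnn1 (-0.23 to 0.0878), Kcnq5 (-0.75 to 1.501), Kcnrg (-0.41 to 1.91), Kcnt1 (-0.33 to 0.13) and Kcnv1 (-0.30 to 0.49); none of these was called. Among genes the naming rule chose and sums, 476 other values kept their direction and their side of the threshold. Further genes named in the report were not among these; without a library, Kcnc4 (-0.07 to 2.17), Kcnh6 (-0.64 to 0.96), Kcnh7 (-0.47 to 0.52) and Kcnh8 (-0.45 to 0.85) also lay on both sides of 0, as did 20 of the 62 tested members in all. The cause of these changes was not tested. Same-numbered libraries did not deviate together from their group means (r = -0.04 for number 1 and -0.03 for number 2, across genes). The 2 Npy libraries deviate from their mean by equal and opposite amounts, so this check cannot exclude pairing. The replicate block rests on a shared number only. With a single Npy library left, that library is assumed to vary like the Pomc group. The pair of Npy libraries limits every comparison, and low members most.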

Other observations

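Ratios of members within a library do not depend on the total to which that library was scaled. They do rest on the scaling by gene length, which was not tested. They were computed after the values were seen and carry no test. Kcnk12 over Kcnk1 was 43.0, 15.9, 11.5 and 6.65 in Pomc libraries, against 0.862 and 0.228 in Npy libraries, so that Kcnk12 was the more abundant of the pair in every Pomc library and Kcnk1 in both Npy libraries. Kcnmb4 over Kcnma1, the BK accessory subunit over its pore, was 4.29, 3.33, 2.53 and 2.15 in Pomc libraries, against 1.55 and 2.63 in Npy libraries, with overlap.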
